A study of Homo sapiens with 19 samples.

Results

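The retinoic acid pathway genes described here are CRABP1, CRABP2, CYP26A1, RARA, RARB, RARG, STRA6, DHRS3, RDH10 and ALDH1A2, that is, 10 of the 20499 gene symbols that could be matched to a probe. They were chosen by name, as genes that take up, carry, make, break down or sense retinoic acid, by a rule that uses no measured value. Earlier results of these data were, however, known when they were chosen. The 10 genes had 15 probes, with 2 probes each for STRA6, CRABP1, CRABP2, RARA and RARB and 1 probe each for the other 5. To follow the earliest phase of the differentiation into brown adipocytes (BAs), human embryonic stem cells (hESCs) of the line KhES-3 were harvested once at each of 19 time points after the induction. These were 3, 4 and 6 h, then 8, 10 and 12 h, then every 2 or 4 h to 36 h (14, 16, 20, 24, 28, 32 and 36 h), then every 6 h from 42 to 72 h, and the total RNA of each harvest was put on a one-colour Agilent expression array. All 19 samples were unedited cells of this 1 line in the same serum-free medium on low-attachment dishes, with albumin, synthetic lipids, insulin, transferrin, selenium and ascorbic acid phosphate, and with 6 factors, BMP4 and KITLG at 20 ng/ml, IGF-II and VEGFA at 5 ng/ml and FLT3LG and IL-6 at 2.5 ng/ml. No retinoid is named among these components, no sample was taken before the induction, and no untreated cells accompanied the series. The labels describe hESCs kept on irradiated mouse embryonic fibroblasts, whereas the methods of the study describe a feeder-free culture.

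Retinol enters cells through the receptor STRA6, is oxidised to retinaldehyde by dehydrogenases such as RDH10 and then to retinoic acid by enzymes of the ALDH1A group, while DHRS3 turns retinaldehyde back into retinol. Retinoic acid is carried in the cytoplasm by CRABP1 and CRABP2, is broken down by CYP26A1, and acts through the nuclear receptors RARA, RARB and RARG, which bind DNA together with RXR partners at repeated hexamers. CYP26A1 and RARB are textbook targets of these receptors, and retinoic acid is known in embryos for patterning the body axis and in stem cell cultures for driving cells out of pluripotency.

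By the RefSeq annotation of GRCh38.p14, CYP26A1 lies at chr10:93073475-93077885, RARA at chr17:40309180-40357643, RARB at chr3:24829321-25597932 and RARG at chr12:53210569-53232209. STRA6 (chr15:74179466-74212259), CRABP1 (chr15:78340353-78348225) and ALDH1A2 (chr15:57953429-58065711) share chromosome 15, and CRABP2 (chr1:156699606-156705784) and DHRS3 (chr1:12567910-12618210) chromosome 1.

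The repeated hexamers are shown first because they mark, among these genes, those that carry a receptor-type site next to a start. In the RefSeq table of GRCh38.p14, 9 of the 10 genes had 22 promoter windows, each from 250 bases before to 50 bases after a transcription start. These were searched on both strands for a pair of hexamers in the same direction with 1, 2 or 5 bases between them, where each hexamer could be AGGTCA, the common form, or GGGTCA, which is another form, or AGTTCA, as in the known RARB site, or lastly GGTTCA. The forms allowed include both hexamers of that well-known RARB site, so its match was fixed by the search and is no finding. A match was found in 2 of the 22 windows, 1 of RARB and 1 of CYP26A1, both with a spacing of 5 bases. Over all 35116 windows of the table, the spacing of 5 bases occurred in 31 (0.0883%) and any of the 3 spacings in 91 (0.259%). The lines below give 29 bases around each site on the strand of the gene, with the hexamers in capitals.
RARB, chr3:25428204-25428232, plus strand: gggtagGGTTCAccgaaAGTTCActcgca
CYP26A1, chr10:93073797-93073825, plus strand: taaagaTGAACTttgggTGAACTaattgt
The RARB site lay from 53 to 37 bases before its start. The CYP26A1 site lay from 90 to 74 bases before its start, and its hexamers read on the opposite strand as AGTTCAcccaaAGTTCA. Read in that direction, the site of CYP26A1 was identical to that of RARB at 15 of 17 bases, with 11 of 12 hexamer bases and 4 of 5 spacer bases shared. A match of letters describes the sequence and does not show that a receptor was bound there. Both hexamers of the CYP26A1 site are the AGTTCA form, which the search took from the known RARB site. CYP26A1 is also a textbook target, so its match is no independent finding either.

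Signals are the processed signal of the scanner software, with each array scaled to its 75th percentile and expressed at a common 75th percentile of 725. Before scaling, the 75th percentile ran from 526 at 66 h to 800 at 24 h, and was 535 at 72 h and 619 at 60 h, the next lowest. The share of probes well above background ran from 49.5% at 14 h to 64.7% at 54 h, with 52.0% at 16 h and 53.8% at 72 h. The mean log2 signal of the spike-in RNA was highest at 66 and 72 h (14.09 and 14.11). The late values of RDH10, DHRS3 and CRABP2 given below rest in part on these 2 arrays. The arrays lay on 3 slides, the first with the 6 arrays from 3 to 12 h, the second with 8 arrays (14 to 42 h) and the third with 5 (48 to 72 h), which was scanned on a later day. Time and slide therefore overlapped. With 1 culture per time point the spread between cultures was not measured, and p-values measure the scatter of the arrays around a trend. The error that the scanner software gives for a spot was 10.0% at the median for the detected probes of the members and 19.7% at most. Because bulk RNA was measured, fewer cells with a transcript and less of it per cell cannot be told apart. Of the markers of pluripotent stem cells, 7 with a probe were all well above background on all 19 arrays, POU5F1, SOX2 and NANOG among them. Markers of other cell types were present in part. Of 6 fibroblast markers, COL1A1, COL1A2 and THY1 were well above background on all 19 arrays, DCN on 9 and COL3A1 and LUM on 1 each. Of 5 neuroectoderm markers, NES and OTX2 were so on all 19 arrays, PAX6 on 10 and SOX1 and ZIC1 on 0. Of 5 primitive streak markers, TBXT, EOMES and GSC were so on all 19 arrays and MIXL1 and MESP1 on 18. Of 4 endoderm markers, SOX17, FOXA2 and GATA6 were so on all 19 arrays and GATA4 on 18. Of 6 blood and endothelium markers, CDH5 and KDR were so on all 19 arrays, RUNX1 on 18, GATA2 on 17, TAL1 on 6 and PECAM1 on 1.

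Of the 10 genes, 8 were detected well enough to be tested. 7 were well above background on all 19 arrays (STRA6, CRABP1, CRABP2, RDH10, DHRS3, RARA and RARG) and CYP26A1 on 18, its spot at 14 h having been left out as an outlier. RARB and ALDH1A2 were well above background on 2 arrays and 1 array and were not tested. Over 72 h, by the probe used for each gene, STRA6 rose and CYP26A1, RARA, DHRS3 and RDH10 fell, whereas CRABP1, CRABP2 and RARG had no slope that passed the test (limma slope of log2 signal on hours, Benjamini-Hochberg adjusted p under 0.05 over all probes tested, 1 probe per gene, the one with the highest mean log2 signal). The calls of STRA6 and RARA hold for that probe only. The other probe of STRA6 fell (-0.0144, limma adjusted p = 0.00019), and that of RARA had a slope of 0.0080 (limma adjusted p = 0.111). From 3 to 54 h alone, CRABP2 (-0.0135, limma adjusted p = 0.00123) and CRABP1 (-0.0068, adjusted p = 0.0124) fell, and DHRS3 (-0.0031, adjusted p = 0.344) and RDH10 (0.0010, adjusted p = 0.797) lost their calls. The share of rising genes was thus 1 of 8, where 21.3% of the 16692 genes tested rose, and that of falling genes 4 of 8, where 32.7% fell. A change of any shape, tested with a cubic curve in hours, was called for 7 of the 8 genes, all but CRABP1, and for 79.5% of all genes tested. From 3 to 12 h, within the first slide, 3 genes fell (CYP26A1, RARA and RARG) and 0 rose, where 5.19% of all 15773 genes tested there fell and 3.43% rose. At an unadjusted p under 0.05, 4 genes fell and 0 rose in limma there. The median slope of the 8 genes was -0.0044 log2 per hour over all arrays and -0.0287 from 3 to 12 h, beside medians of -0.0012 and 0.00035 over all genes tested.

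The slide limits these calls most. With the slide as a fixed block in limma, 0 genes rose and 0 fell, and at an unadjusted p under 0.05 1 rose (STRA6) and 0 fell. A change of any shape was still called for 5 of the 8 genes with this block. The counts also moved with the scaling, to 1 rising and 5 falling genes with the median of each array and to 0 rising and 6 falling with spike-in RNA. The share of all genes called was counted only without the block and with the 75th percentile. The counts under these other settings therefore cannot be set against the whole array. CRABP1 was among the falling genes with both (adjusted p = 0.00320 and 0.00619) and also without the 72 h array (adjusted p = 0.0306) or without the 14 and 16 h arrays (adjusted p = 0.0496), and CRABP2 with spike-in RNA (adjusted p = 0.0283). From the mean of 3, 4 and 6 h to that of 60, 66 and 72 h, the median of all genes shifted by -0.11 log2 with the 75th percentile, by -0.45 with the array median and by -0.69 with the spike-in RNA, and the changes below are relative to the first of these.

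**Figure D1:**
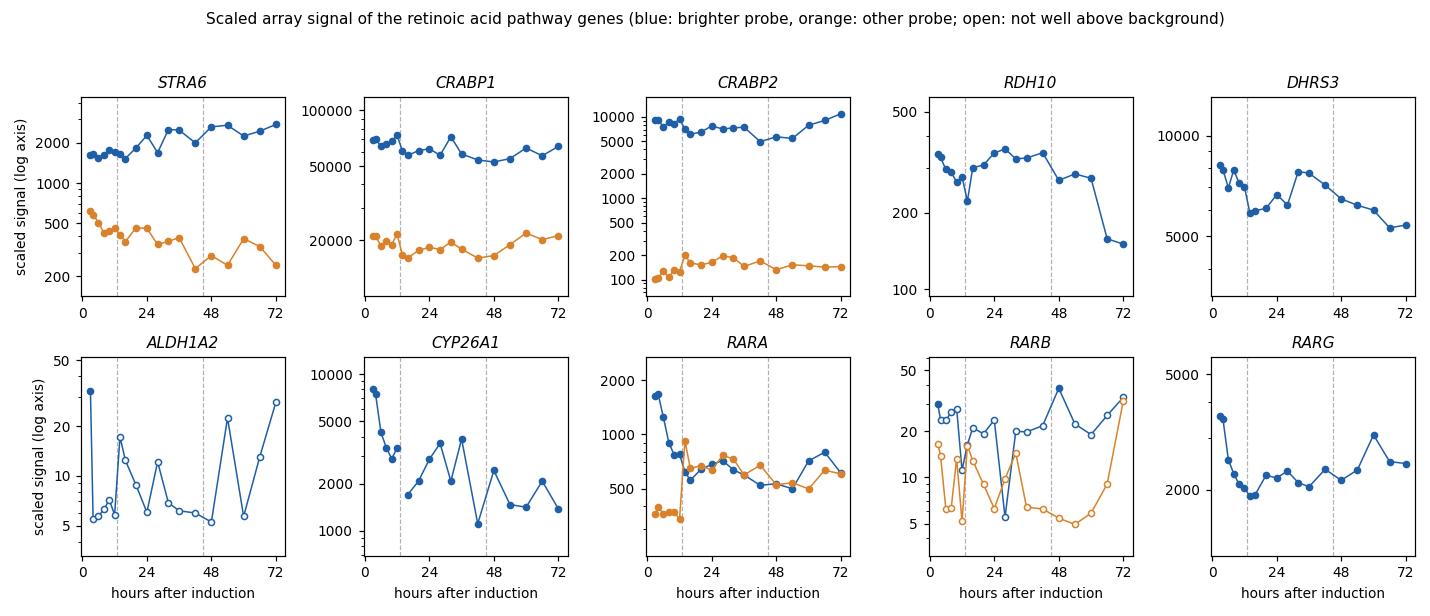
Scaled signal (vertical axis, log scale, arbitrary units of the scanner at a common 75th percentile of 725) of the 10 genes against hours after induction (horizontal axis), 1 point per array. Blue marks the probe with the higher mean, orange the other probe, open points are not well above background, and dashed lines separate the 3 slides. CYP26A1 falls from 8034 at 3 h to 3374 at 12 h, the probes of STRA6 move apart, and RARB and ALDH1A2 stay among open points on most arrays.

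STRA6, the membrane receptor through which retinol bound to its plasma carrier is taken up, was the only one of the 8 tested genes whose brighter probe rose, and its other probe fell. The probe for NM_001199042 had its lowest signal at 16 h (1525), a median of 1837 and its highest at 72 h (2744). Signals from 3 to 16 h stayed between 1525 and 1763, and all 5 arrays from 48 to 72 h lay above that, between 2247 and 2744. The slope was 0.0118 log2 units per hour (standard error 0.00187, limma adjusted p = 3.6e-05), and the log2 difference between the late and the early arrays was 0.62. The slope within the slides was 0.0129 in the first, 0.0184 in the second and -0.00049 in the third.
The probe for NM_001142620, another transcript of STRA6, had its highest signal at 3 h (616), a median of 391 and its lowest at 42 h (229). It went down where the first probe went up, with a slope of -0.0144 (standard error 0.00268, adjusted p = 0.00019) and a late minus early difference of -0.84. The log2 ratio of the first over the second probe, which does not depend on the scaling between arrays, was 1.39 at 3 h, 1.91 at 12 h and 3.50 at the end of the series. Its slope of 0.0262 log2 per hour had a two-sided permutation p of 1e-05, the smallest that 100000 resamples can give (adjusted p = 4e-05 over the 4 genes with both probes detected). Within the slides the slope of the ratio was 0.0669 (standard error 0.0155) in the first, 0.040 (standard error 0.00549) in the second and -0.00032 (standard error 0.0249) in the third. Blocked by slide, its slope was 0.0283 and the adjusted p 0.0584 when times were permuted within the slides. Averaged over both probes, STRA6 had a slope of -0.0013 (limma adjusted p = 0.572), so no single direction can be given for the gene.

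**Figure D2:**
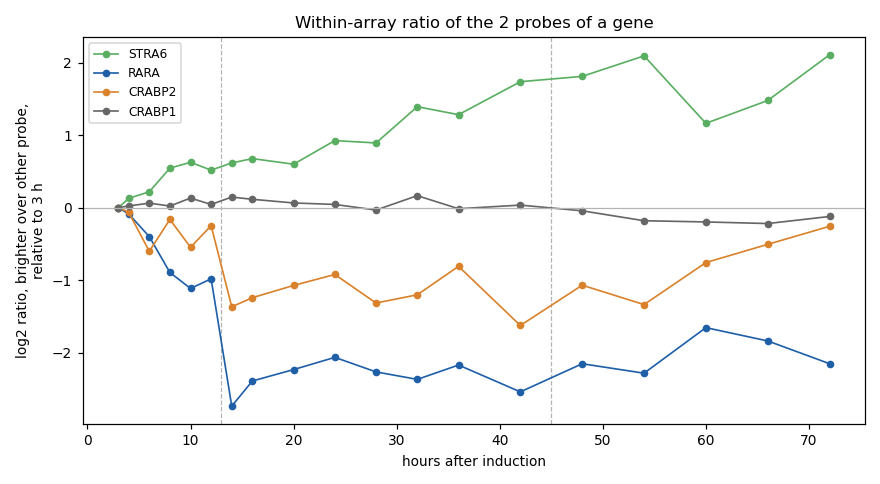
Log2 ratio of the brighter over the other probe of the same gene within each array (vertical axis), set to 0 at 3 h, against hours after induction (horizontal axis), with 1 point per array and dashed lines between slides. STRA6 climbs over the series, RARA falls on the first slide and drops at the step to the second, CRABP2 drops at that step, and CRABP1 stays near 0.

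CRABP1 and CRABP2, the cytoplasmic carriers of retinoic acid, of which CRABP2 is known to deliver it to the receptors in the nucleus and CRABP1 to bring it to breakdown, were detected throughout. CRABP1 (NM_004378) had its lowest signal at 48 h (52833), a median of 62224 and its highest at 12 h (73731), so the highest array was 1.40-fold the lowest. Its slope was -0.0033 log2 units per hour (standard error 0.00153, limma adjusted p = 0.0771) and a cubic curve had an adjusted p of 0.0505. Its other probe, for the same transcript, ran from 16072 at 42 h to 21885 at 60 h with a slope of 0.00058 (standard error 0.00171, adjusted p = 0.797). Both probes thus kept within a 1.40-fold range.
CRABP2 (NM_001878) varied more. Its signal was 9121 at 3 h and 9501 at 12 h, then 7028 on the 14 h array. The lowest was 4964 (42 h) and the highest 10917 (72 h), around a median of 7602. Its signals lay between 7602 and 9501 on the first slide and between 4964 and 7750.0 on the second, and within the third slide its slope was 0.0436 (standard error 0.00756). The straight slope was -0.0013 (standard error 0.00313, adjusted p = 0.749), and the cubic curve passed (adjusted p = 0.00175). The probe for NM_001199723 had a median of 146 and a slope of 0.0042 (standard error 0.00288, adjusted p = 0.230), and it stepped up by 0.68 log2 between 12 and 14 h, where the first probe stepped down by 0.43. The log2 ratio of CRABP1 over CRABP2 within the arrays was 2.92 at 3 h and 2.55 at 72 h, with no slope that passed the test (-0.0020, standard error 0.00235, permutation p = 0.409, adjusted p = 0.409 over 3 pairs of genes). Without the 72 h array this slope was 0.00071.

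RDH10, which oxidises retinol to retinaldehyde, and DHRS3, which works in the opposite direction, both fell slightly over the series. RDH10 (NM_172037) had its highest signal at 28 h (356), a median of 296 and its lowest at 72 h (150). It went from 341 at 3 h to 222 at 14 h, read 301 at 16 h and was back at 345 at 42 h. It dropped from 273 at 60 h to 158 at 66 h, so that the last 2 arrays lay below all others. These 2 arrays had the lowest 75th percentiles before scaling, and the 14 h array the lowest share of probes well above background. The slope was -0.0089 log2 units per hour (standard error 0.00307, limma adjusted p = 0.0206) and the late minus early difference -0.79. This fall rested on the last arrays, since without the 66 h array the adjusted p was 0.0994, without the 72 h array 0.154, and over 3 to 54 h the slope was 0.0010 (adjusted p = 0.797). The cubic curve passed with an adjusted p of 5.9e-05.
DHRS3 (NM_004753) had its highest signal at 3 h (8164), a median of 6664 and its lowest at 66 h (5297). It was 5869 at 14 h, 7816 at 32 h and 5401 at 72 h, so the second slide held both low and high values. The slope was -0.0054 (standard error 0.00176, adjusted p = 0.0143) and the late minus early difference -0.47. Within the slides it was -0.0195, 0.0140 and -0.0124, and with the slide as a fixed block 0.0035 (adjusted p = 0.668), the opposite direction. The log2 ratio of DHRS3 over RDH10 within the arrays was 4.58 at 3 h and 5.17 at 72 h, its highest, and its slope did not pass (0.0035, standard error 0.00273, permutation p = 0.224, adjusted p = 0.336).

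ALDH1A2, an enzyme that makes retinoic acid from retinaldehyde in early embryos, was well above background on 1 of the 19 arrays, at 3 h (32.7). The other 18 signals ran from 5.26 to 27.9 and were not well above background, so no trend is given. Of the other genes for this step, ALDH1A3 was detected on all 19 arrays. Its signal was 1314 at 3 h, 696 at 14 h and 1276 at 72 h, with a slope of 0.0040 (standard error 0.00295, limma adjusted p = 0.262). ALDH1A1 rose from 103 at 3 h to 190 at 48 h and 128 at 72 h, with a slope of 0.0131 (standard error 0.00333, adjusted p = 0.00285).

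CYP26A1 (NM_057157), the cytochrome P450 that clears retinoic acid, changed most among the 8 tested genes, and its fall was steepest within the first hours. On the first slide, from 3 h to 12 h, it read 8034, 7444, 4248, 3388, 2889 and 3374 in the order of time. The 3 h signal was thus 2.38-fold that of 12 h, and every array from 6 h on lay below both the 3 h and the 4 h array. On the second slide the signal swung between 1113 at 42 h and 3858 at 36 h, and on the third between 1383 at 72 h and 2430.2 at 48 h. These swings made CYP26A1 the member with the largest scatter around its line, 0.57 log2, against 0.13 to 0.43 for the other 7 tested genes. The slope was -0.162 log2 per hour from 3 to 12 h (standard error 0.0330, limma adjusted p = 0.0389) and -0.0255 over all 18 arrays (standard error 0.00581, adjusted p = 0.00133), with a late minus early difference of -1.99. Within the second and the third slide it was -0.0084 (standard error 0.0308) and -0.0188 (standard error 0.0198). With the spot at 14 h kept, which read 4511, the slope over all arrays was -0.0261 (adjusted p = 0.000797). With the slide as a fixed block the slope over all arrays had nearly the same size, -0.0227, but an adjusted p of 0.445. CYP26B1 and CYP26C1, the other enzymes of this kind, were well above background on 1 and 3 arrays and were not tested.

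RARA and RARG, the receptors that were detected, fell together with CYP26A1 from 3 to 12 h. The RARA probe with the higher mean (NM_001024809) read 1626, 1678, 1242, 901, 769 and 775 on these arrays of the first slide. From 14 h on it stayed between 499 at 54 h and 796 at 66 h, and only the 66 h value lay above the 10 and 12 h values. The slope was -0.142 from 3 to 12 h (standard error 0.0182, limma adjusted p = 0.0155) and -0.0131 over all arrays (standard error 0.00437, adjusted p = 0.0174), with a late minus early difference of -1.10. The cubic curve had an adjusted p of 2.8e-05.
The other RARA probe carries the same transcript name and did not show this course. It lay between 339.9 and 395 on the first slide, with a slope of -0.0118 there (standard error 0.0106, adjusted p = 0.519), and read 923 at 14 h, a step of 1.44 log2 from 12 h. Of all genes tested, 95% changed by less than 1.02 log2 at this step between slides. Over all arrays its slope was 0.0080 (standard error 0.00413, adjusted p = 0.111). The log2 ratio of the first over this probe went from 2.17 at 3 h to 1.19 at 12 h, -0.57 at 14 h and 0.018 at 72 h, with a slope of -0.0211 (permutation p = 0.0164, adjusted p = 0.0218) that was -0.0024 with the slide as a block (adjusted p = 0.759). The fall of RARA therefore rests on 1 of its 2 probes, and averaged over both its slope was -0.0025 (adjusted p = 0.340).
RARG (NM_000966), with 1 probe, read 3576, 3491, 2532, 2269, 2085 and 2028 there. It went down at every step of the first slide, had its lowest signal at 14 h (1894) and came back to 3085 at 60 h and 2459 at 72 h. The slope was -0.0989 from 3 to 12 h (standard error 0.0156, adjusted p = 0.0231), whereas over all arrays it was -0.00015 (standard error 0.0028, adjusted p = 0.970). The cubic curve passed (adjusted p = 0.00232). The log2 ratio of RARA over RARG within the arrays fell by 0.0129 per hour (standard error 0.00245, permutation p = 7e-05, adjusted p = 0.00021), from -1.14 at 3 h to -2.01 at 72 h. Blocked by slide, its slope was -0.0062 (adjusted p = 0.296), and the ratio uses the RARA probe that its partner did not follow.

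**Figure D3:**
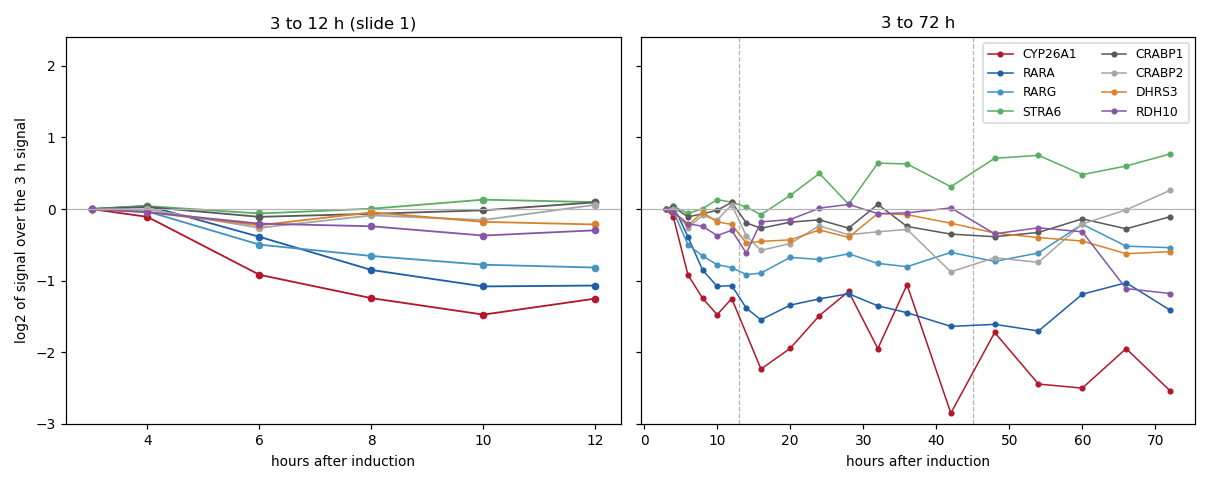
Log2 of the signal over the 3 h signal (vertical axis) against hours after induction (horizontal axis) for the 8 detected genes, brighter probe, 1 point per array, with the first slide on the left and all arrays on the right. From 3 to 12 h CYP26A1, RARA and RARG go down while the other 5 stay within 0.37 log2 of their 3 h value.

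The early fall lies within 1 slide and rests on 6 arrays. Leaving out the 3, the 4 or the 10 h array left 0 of the 3 genes called, and leaving out the 8 h array left RARA and RARG. The slopes of these 3 genes were negative in all 6 of these fits. The slope of CYP26A1 ran from -0.226 to -0.142 in these fits, that of RARA from -0.173 to -0.130 and that of RARG from -0.121 to -0.0898. With the array median as the scaling all 3 were called, and with spike-in RNA RARA was (adjusted p = 0.0219), while CYP26A1 (adjusted p = 0.0501) and RARG (adjusted p = 0.0503) missed the threshold. This stretch was examined after the values had been seen. The other 5 tested genes had slopes from -0.0380 to 0.0129 there, RDH10 lowest (adjusted p = 0.0795) and STRA6 highest (adjusted p = 0.467). Among the marker lists, 3 genes fell as well from 3 to 12 h, where 5.19% of all 15773 genes tested fell. These were GATA2 of the blood and endothelium list (382 to 65.6, slope -0.316, adjusted p = 0.0120), OTX2 of the neuroectoderm list (594 to 310.1, slope -0.0958, adjusted p = 0.0259) and THY1 of the fibroblast list (28983 to 18301, slope -0.0811, adjusted p = 0.0302). NES, which made up most of the summed neuroectoderm signal, read 24775 at 3 h and 29704 at 12 h (slope 0.0265, adjusted p = 0.334). On the 3 slides in turn, the summed signal ran from 25584 to 33677, from 14167 to 25188 and from 13641 to 18929 for neuroectoderm, from 33260.2 to 45625, from 28014 to 36103 and from 27347 to 48019.5 for fibroblasts, and from 2436 to 3913, from 2862 to 6081 and from 5489 to 8428 for blood and endothelium. THY1 gave the largest part of the fibroblast sum (28983 at 3 h and 33705 of 48019.5 at 72 h), and KDR most of that of blood and endothelium. Each of these sums thus rested largely on 1 gene, and COL3A1 and LUM were well above background on 1 array each. The contribution of cells of these types to the fall of the receptors was not tested.

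**Figure D4:**
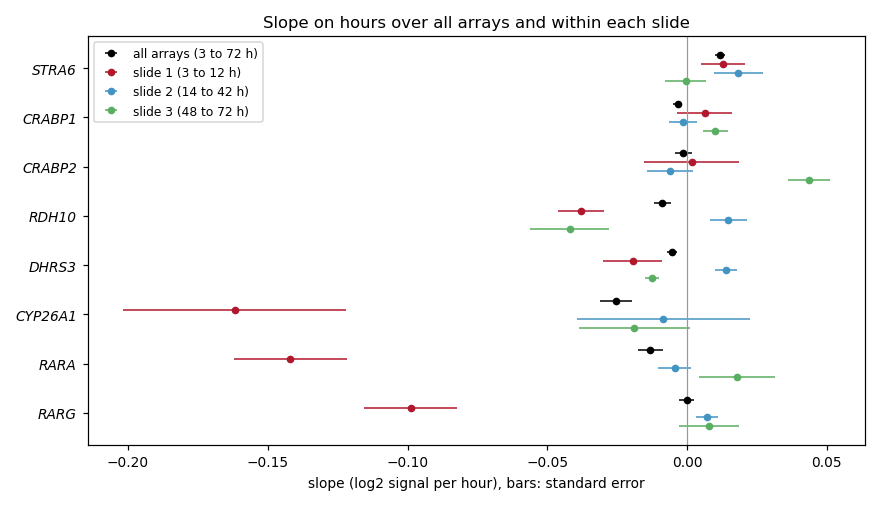
Slope of log2 signal on hours (horizontal axis, log2 per hour) for the 8 detected genes over all arrays and within each of the 3 slides, with standard errors as bars. The slopes of CYP26A1 (-0.162), RARA (-0.142) and RARG (-0.0989) within the first slide lie far from those within the later slides, and those of DHRS3 and RDH10 have a different sign in the second slide.

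RARB, the receptor gene whose promoter holds the site shown above, was not well above background on most arrays. Its brighter probe (NM_000965) was well above background on 2 of 19 arrays, at 3 h (29.9) and 48 h (38.2), and its other 17 signals ran from 5.50 to 33.3. The other probe, for the same transcript, was well above background on 0 arrays, with signals from 4.93 to 31.6. Of the 2 genes with a receptor-type site in a promoter window, CYP26A1 was detected and RARB was not measurable on these arrays. A link between such a site and the course of a gene was not tested.

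The rest of the pathway was described with 7 lists of 74 genes, of which 72 had a probe and 50 could be tested. Over all arrays 10 of the 50 rose and 22 fell, beside 21.3% and 32.7% of all genes tested, and from 3 to 12 h 1 of 47 rose and 4 fell, beside 3.43% and 5.19%. In the list of retinol uptake and storage, 3 of 6 tested genes fell and 2 rose. LRAT, which esterifies retinol for storage, decreased most. It went from 1737 at 3 h to 858 at 12 h and 650.1 at 72 h, with a slope of -0.0243 (standard error 0.00333, limma adjusted p = 7e-06) over all arrays and of -0.115 from 3 to 12 h (standard error 0.0125, adjusted p = 0.0120). RBP4, the carrier of retinol in plasma (slope -0.0169, adjusted p = 3e-06), fell as well, and from 3 to 12 h it had a slope of 0.0085 (adjusted p = 0.774). RBP7 (slope 0.0065, adjusted p = 0.00266) and DGAT1 (slope 0.0075, adjusted p = 0.0246) rose.
Of 11 tested enzymes of retinol and retinaldehyde, 6 fell and 2 rose. ADH1C (slope -0.0153, adjusted p = 0.0471), RDH11 (-0.0117, adjusted p = 0.000152) and RDH5 (-0.0109, adjusted p = 0.0103) had the steepest falls. RDH16 (0.0224, adjusted p = 2.7e-05) and BCO2, which cleaves carotenoids (0.0206, adjusted p = 0.0302), rose from dim signals of 58.0 and 54.1 at 3 h.
Among the nuclear partners, RXRB rose (slope 0.0088, adjusted p = 0.000753), and FABP5, a fatty acid carrier that also binds retinoic acid (-0.0137), and RXRG (-0.0084, adjusted p = 0.0321) fell, while RXRA (-0.0076, adjusted p = 0.0926) did not pass. Of 9 coregulators 3 fell and the other 6 did not pass, with slopes of -0.0105 for HDAC3 (adjusted p = 0.00421), -0.0096 for TBL1X (adjusted p = 0.00176) and -0.0050 for NCOA2 (adjusted p = 0.0476).

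Genes that retinoic acid is known to regulate in other cells moved in both directions. Of the 30 listed, 17 could be tested, and 4 rose and 8 fell, where 21.3% of all genes tested rose and 32.7% fell. The median slope was -0.0044. Of the anterior HOX genes, which respond early in many cell types, HOXB2 was well above background on 18 arrays (slope -0.0044, adjusted p = 0.689) and HOXB4 on 8 (slope 0.0046, adjusted p = 0.634), while HOXB1, HOXA2, HOXA3, HOXB3, HOXA4 and HOXD4 were each so on 0 or 1 array. PAX6 (slope -0.0515, adjusted p = 0.000622) and CDX2 (-0.0198, adjusted p = 0.0384) fell. CDX1 (0.0112, adjusted p = 0.000781) and PLAAT4 (0.0090, adjusted p = 0.0270) rose. The signal of CDX1 was 665 at 3 h and 616 at 12 h, then 1168 at 14 h, the first array of the second slide. Within the slides its slope was only -0.0064, 0.0021 and 0.0097, so its rise lay largely in the step between the first and the second slide. PAX6 is also a neuroectoderm marker. It was well above background on 10 arrays, with a signal of 204 at 3 h and 106 at 12 h.
From 3 to 12 h, GBX2, RXRB and RDH13 fell beside LRAT, and PLAAT4 rose, and these 5 genes are named after their values were seen. GBX2, a transcription factor of the embryonic midbrain and hindbrain border, read 164 at 3 h and 40.9 at 12 h (slope -0.219, standard error 0.0313, adjusted p = 0.0187). PLAAT4, a gene first found as induced by a retinoid, read 1340.5 at 3 h and 2011 at 12 h (slope 0.0862, standard error 0.0162, adjusted p = 0.0328). RXRB had a slope of -0.0497 (adjusted p = 0.0294) and RDH13 one of -0.0526 (adjusted p = 0.0376).

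The genes whose course over the arrays was most like that of each member were found by Pearson's r of log2 scaled signal over 13967 genes well above background on all 19 arrays. These are descriptions over arrays that share slides and scaling, and no test was made. RARA was most like SNAI3 (r = 0.964), which read 1175 at 3 h and 664 at 12 h, and PPP1R18 (r = 0.957). RARG was most like OVOL1 (r = 0.937), a zinc finger factor of epithelia that read 2748 at 3 h, 684 at 12 h and 1544 by 72 h, and CCND3 (r = 0.925), a D-type cyclin. STRA6 was most like MPI (r = 0.969) and NOXA1 (r = 0.961), which rose from 217 at 3 h to 746 at 72 h. DHRS3 was closest to SLC16A1 (r = 0.908), a lactate transporter, and FCHO1 (r = 0.894), and RDH10 to PLEKHB2 (r = 0.943) and PDE6D (r = 0.924). CRABP2 was closest to CFDP1 (r = 0.921) and IGBP1 (r = 0.916), and CRABP1 to NACA (r = 0.885) and SNORD74 (r = 0.881). CYP26A1, over its 18 arrays, was most like PTGER4 (r = 0.920), a prostaglandin E2 receptor, and SLC41A1 (r = 0.893). Its r was 0.834 with RARA, 0.575 with LRAT and 0.430 with RARG over all of these arrays, the first slide included. Among the 13967 genes these ranked 48, 2918 and 5009, so LRAT and RARG were not among the genes most like CYP26A1. The value for RARA uses the probe that its partner did not follow.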

How the data were processed

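Per the file headers, the authors' arrays were read with Agilent Feature Extraction 10.10.1.1, and the deposited scanner output holds for each of 62976 spots a processed intensity, with the local background removed and no scaling between arrays. The authors also deposited an intensity table, found to be this signal times 1 factor per array (0.905 to 1.38) that set each 75th percentile to between 724.6 and 726.3, and blank where a spot was not well above background. Spots the software marked as outliers (232 to 814 per array) were left out, 0 were saturated, and 28170 of 50683 probes were matched through RefSeq to GRCh38.p14 symbols. The log2 intensity minus the 75th percentile of the array was fitted with limma 3.58.1 (R 4.3.3) over the 32113 probes that 5 or more arrays showed well above background. Permutation tests (100000 resamples) used Python 3.11.15 with numpy 2.4.6.

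On simulated data the fit recovered 81 of 100 probes at 0.02 and 94 of 100 at 0.04 log2 per hour, with 12 false calls. The simulated noise was independent between arrays and had no steps between slides, so these numbers do not cover errors that come with the slides. Precision is limited by the number of arrays. The members, the lists and the rules were chosen with earlier results of these data known. Genes named outside the members are the up to 3 steepest per list and direction, called and well above background on at least 10 arrays, and the 2 most like each member detected on all arrays (some of these genes are not reported here); the genes beside CYP26A1 and the 3 to 12 h calls were added after seeing the values. The 6 marker lists cover pluripotent cells, fibroblasts, neuroectoderm, primitive streak, endoderm, and blood and endothelium, of which 4 of 7, 1 of 4, 3 of 3, 0 of 5, 1 of 4 and 1 of 5 tested genes fell and 0, 1, 0, 1, 0 and 1 rose. Of all genes tested, 32.7% fell and 21.3% rose. The pair CYP26A1 and ALDH1A2 was not tested because ALDH1A2 was not detected on 10 arrays.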

Additional observations from a re-analysis of the deposited data

How the results depend on the processing

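No paired analysis was possible because there was a single array for each hour. STRA6 was no longer rising (0 genes) with spike-in RNA, with the slide as a fixed block and with the mean of both probes (STRA6 slope -0.0013, late minus early -0.11). The 4 falling genes became 1 (CYP26A1) with the deposited table scaled anew over its detected probes, and 0 with the slide as a fixed or a random block. With the fixed block, 5 genes kept a change of any shape. With the table as it stands, an alternative chosen after seeing the data, the falling genes were 4. Falling genes from 3 to 12 h numbered 1 (RARA) with spike-in RNA. Leaving out each array in turn gave 1 rising, 3 to 4 falling, 7 to 8 of any shape, and 0 to 3 falling from 3 to 12 h. The ratio of RARA over RARG had a slope of -0.0062 (permutation adjusted p = 0.296) with the slide as a block, and that of CRABP1 over CRABP2 ran from -0.0031 to 0.00071 over the arrays left out.

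CRABP1, CRABP2 and RARG, which had no called slope, changed sign under several alternatives. With normexp and quantile normalization they were 0.00069, 0.0042 and 0.0028, with the table scaled anew 0.00034, 0.0023 and 0.0035, and with the slide as a fixed block 0.0028, 0.0106 and 0.0016. The random block gave 0.0019 for CRABP2 and 0.00037 for RARG, and the mean of probes 0.0014 for CRABP2. DHRS3 turned to 0.0035 with the fixed block and RDH10 to 0.0010 over 3 to 54 h. Leaving out single arrays moved RARG from -0.0018 to 0.0019 and CRABP2 from -0.0052 to 7.5e-05. The late minus early difference turned to -0.24 (array median) and -0.48 (spike-in RNA) for CRABP2, to 0.030 for CRABP1 (normexp), and ran from -0.021 to 0.21 for CRABP2 over the arrays left out. From 3 to 12 h the slope was -0.0060 for CRABP1 and -0.0107 for CRABP2 with the array median, -0.0027 and -0.0074 with spike-in RNA, and ran from -0.0070 to 0.0112 and from -0.0207 to 0.0120 over the arrays left out. The cause was not tested. Signals of RARB and ALDH1A2 were too close to background for any trend.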
